A study of Rattus norvegicus with 4 samples.

Results

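The genes described here are those of the Wnt, Notch, bone morphogenetic protein (BMP) and hedgehog signaling pathways in the hippocampus of newborn rats. They were chosen by symbol among the rows that carry a numeric gene ID, and comprise the Wnt ligands, Frizzled receptors, secreted Wnt inhibitors of the Sfrp and Dkk families, Ctnnb1, Axin2 and Lef1, the Notch receptors with their Delta and Jagged ligands and the Hes and Hey targets, the Bmp, Bmpr and Smad genes, and Shh, Ptch1, Smo and the Gli factors. The choice matched 80 genes, out of 13984 rows with a gene ID and 17445 rows in all. Of the 80 genes, 38 belong to Wnt, 16 to Notch, 20 to BMP and 6 to hedgehog signaling.

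These 4 pathways pattern the embryonic brain and later govern how long progenitors divide before they become neurons. Wnt ligands bind Frizzled receptors and stabilize beta-catenin, which activates genes together with TCF/LEF factors, and the cortical hem beside the developing hippocampus is a classical source of both Wnt and BMP ligands. Notch receptors are cleaved after contact with Delta or Jagged ligands on a neighboring cell and, through RBPJ, induce the Hes and Hey repressors that hold radial glia in the progenitor state. BMP ligands act through paired receptors and phosphorylated Smads, whereas Shh relieves the inhibition of Smo by Ptch1 and thereby activates the Gli factors that sustain progenitors of the dentate gyrus.

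Total RNA was sequenced from hippocampi of Wistar rat pups at postnatal day 1 to ask how prenatal exposure to bisphenol A (BPA), an industrial chemical with estrogen-like activity, altered gene expression in each sex. The dams were given BPA by intragastric administration at 5000 µg per kg of body weight daily, starting on gestation day 1 and ending at parturition, or an equivalent volume of vehicle. The 4 groups were male pups of vehicle dams (male control), male pups of BPA dams (male BPA), female pups of vehicle dams (female control) and female pups of BPA dams (female BPA), and each group had 1 library made from a pool of 3 hippocampi. Pooling leaves no measure of the spread between pups within a group, so a difference between 2 libraries of the same sex has no replicate check, and p-values from comparisons of 2 libraries against 2 measure only the spread between these libraries.

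The values were FPKM, the fragments assigned to a transcript scaled to its length and to the size of the library, which allows levels to be compared between genes. From the steps between low values, the 4 libraries were estimated to hold 8660000 to 8920000 fragments, so that 1 FPKM on a transcript of 1 kb corresponds to 8.14 to 8.26 fragments. The tissue carried the markers of hippocampal neurons, 13 of which were matched and summed to 649 to 721 FPKM, with Rbfox3 at 34.7 to 37.7 FPKM in every library. The libraries differed in their neighboring tissue. The 12 choroid plexus markers summed to 280 and 723 FPKM in the control and BPA libraries of males and to 20.5 and 54.5 FPKM in those of females. Ttr alone accounted for 256 and 690 FPKM of the male sums and for 3.96 and 42.4 FPKM of the female sums. The 14 markers of meninges and vessel wall summed to 157 and 141 FPKM in the males and to 270 and 146 FPKM in the females. In bulk tissue, fewer cells of a type and less RNA per cell cannot be told apart. Series of 4 values below give the males first and then the females, with control before BPA in each sex.

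Of the 80 genes, 75 were listed in all 4 libraries, and 53 reached a mean of 1 FPKM and entered the comparisons. These comprised 19 of the 38 Wnt genes, 15 of the 16 Notch genes, 14 of the 20 BMP genes and 5 of the 6 hedgehog genes. Their mean levels ranged from 1.34 FPKM for Smad9 to 223 FPKM for Ctnnb1, with a median of 5.75 FPKM, against 13.4 FPKM over all rows with a gene ID that passed the same limit. The limit was passed by 6 of 18 Wnt ligands, 3 of 8 BMP ligands and 6 of 9 Frizzled receptors, and by all 3 BMP receptors, all 4 Notch receptors and all 4 Notch ligands. The remaining 27 genes were not compared. Of these, 20 stayed below 1 FPKM in every library in which they were listed, and 7 reached 1 FPKM in at least 1 library without exceeding 1.96 FPKM.

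**Figure D1:**
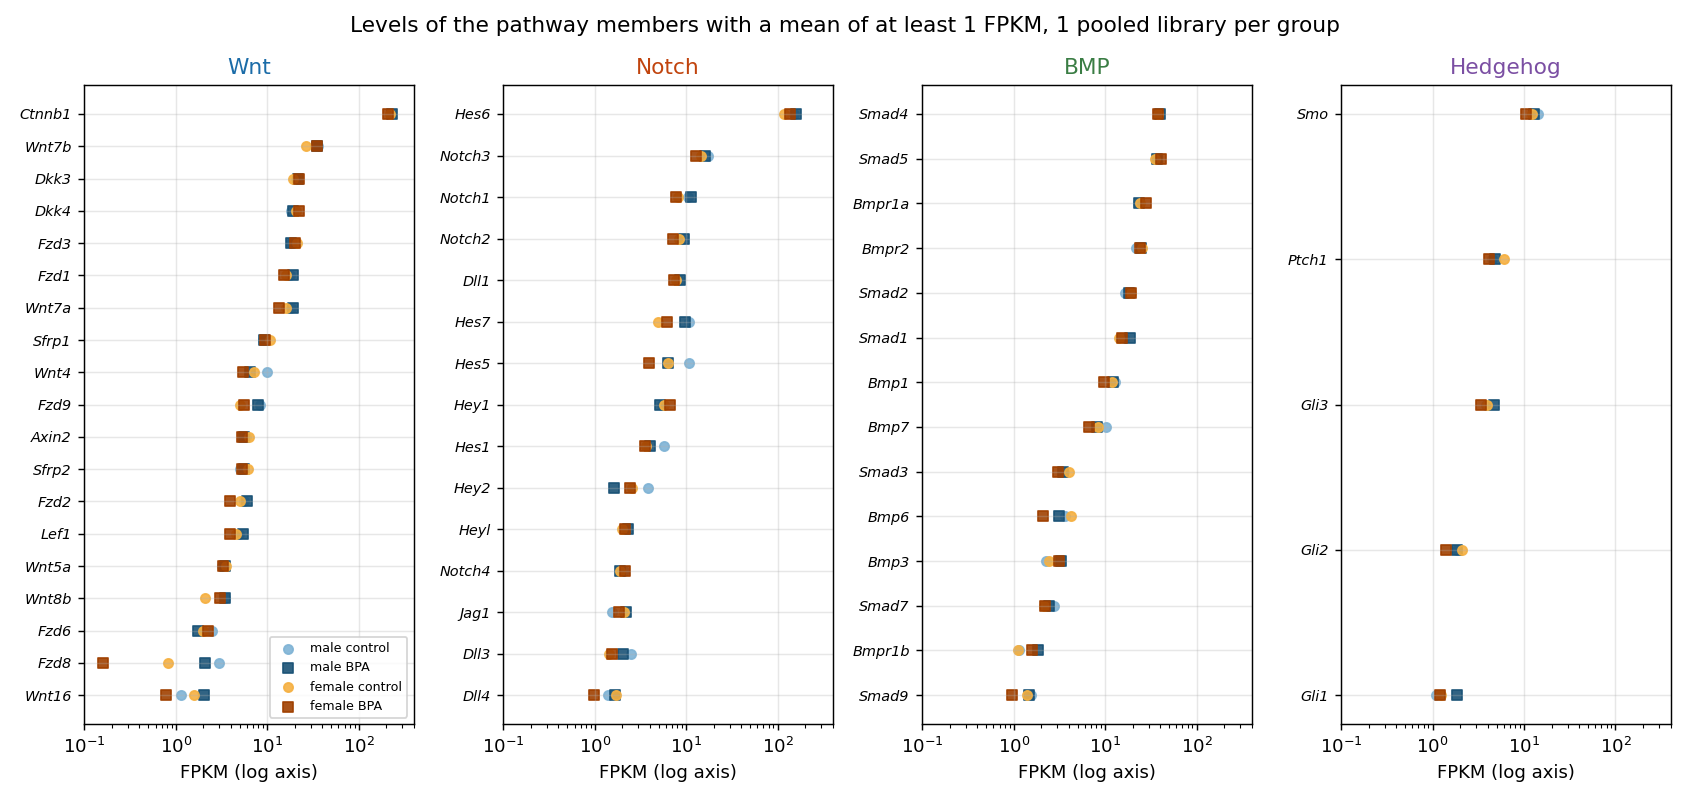
Level of each of the 53 compared genes in the 4 libraries, by pathway, in FPKM on a logarithmic axis. Each symbol is 1 pooled library (circles, control; squares, BPA). The symbols of most genes lie close together, and those of Fzd8 spread from 0.16 to 3.00 FPKM.

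The first comparison asked whether pups exposed to BPA differed from pups of vehicle dams. Differences are given on the log2(FPKM + 1) scale, which understates the change of genes at low levels. With the libraries of both sexes combined, none of the 53 genes differed at an adjusted p under 0.05 in limma, and neither did any of the 13542 rows compared (0%), of which 637 had an unadjusted p under 0.05. With groups of 2 libraries, the smallest two-sided p of an exact permutation test is 0.333. The median difference was -0.03 over the 53 genes and -0.02 over all rows with a gene ID.

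Within males, 1 gene was higher in BPA by at least 0.5 (Wnt16) and 3 were lower by at least 0.5 (Hey2, Hes5 and Wnt4). Among all rows with a gene ID, 1.34% were higher and 2.06% were lower by that amount. Within females, no gene of the pathways was higher by 0.5, against 1.17% of all rows with a gene ID, and 4 were lower (Bmp6, Fzd8, Hes5 and Wnt16), against 4.93%. After quantile normalization of the 4 libraries, 1 gene of the pathways (Wnt8b) was higher and 2 (Bmp6 and Fzd8) were lower by 0.5 in females, next to 234 and 329 rows with a gene ID. Hes5 was the only one of the 53 genes past 0.5 in the same direction in both sexes. The median difference of the 53 genes was 0.02 in males and -0.07 in females, next to -0.0041 and -0.04 over all rows with a gene ID. In females 34 of the 53 genes were lower in BPA, or 64.2%, against 57.1% of all rows with a gene ID, and in males 23 of 53 were lower, or 43.4%, against 51.0%. After the same normalization, the female sign of 7 of those 34 genes turned, among them Hes1 and Hey2. Since each sex has 1 library per treatment, these counts describe the libraries and carry no test.

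**Figure D2:**
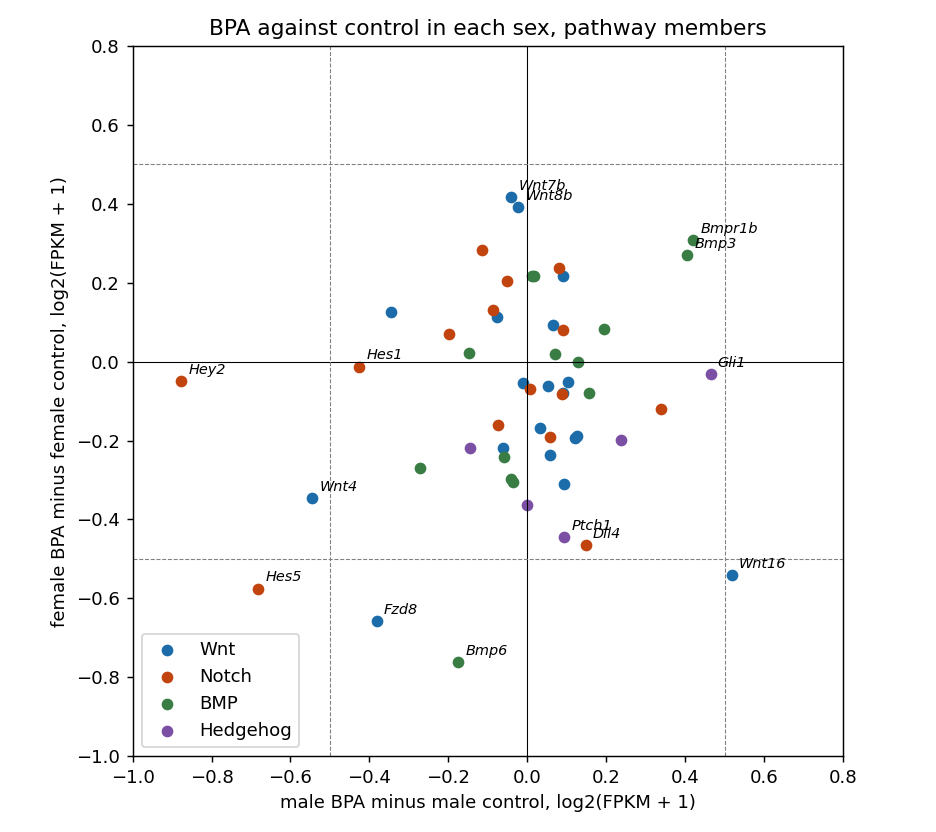
Difference between BPA and control libraries on the log2(FPKM + 1) scale in males (horizontal axis) and females (vertical axis) for the 53 compared genes, colored by pathway. Dashed lines mark 0.5 in either direction. Hes5 lies past both lower lines, at -0.68 in males and -0.58 in females, and Wnt16 lies past lines of opposite direction.

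Of the Wnt ligands, Wnt7b and Wnt7a were the most abundant. Wnt7b, which promotes dendritic growth and vessel formation in the forebrain, was at 36.0, 35.0, 26.3 and 35.4 FPKM. The female control library was lower than the other 3, and the difference between BPA and control was -0.04 in males and 0.42 in females. A further annotated transcript overlaps the Wnt7b locus, so its reads could be included. Wnt7a, a ligand that regulates synapse formation and neural progenitors, was at 18.1, 18.9, 16.0 and 13.5 FPKM, with both female libraries below both male libraries. Wnt8b, which marks the cortical hem and the medial wall from which the hippocampus arises, was at 3.49, 3.42, 2.07 and 3.03 FPKM. Here, too, the female control library stood below the others.

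Wnt4, a ligand that often signals outside the beta-catenin branch, was at 9.86, 6.44, 7.22 and 5.47 FPKM. Both BPA libraries were below both control libraries. The difference was -0.55 in males and -0.35 in females, and -0.45 ± 0.18 (SE, 2 libraries against 2) for both sexes together, with an unadjusted p of 0.048 and an adjusted p of 0.973 in limma. Over the alternative settings this adjusted p ranged from 0.478 to 1. Wnt4 was the only one of the 53 genes with an unadjusted p under 0.05, and among all rows with a gene ID 2.74% were lower at that limit. After quantile normalization the unadjusted p of Wnt4 was 0.070. No member was lower at that limit under that scaling, without the filter on low values, without male control or without female BPA.

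Wnt16, another ligand of both Wnt branches, was at 1.13, 2.05, 1.59 and 0.78 FPKM. It was higher by 0.52 in male BPA and lower by 0.54 in female BPA, so that the groups overlapped when the sexes were combined. These levels correspond to about 16, 29, 22 and 11 fragments, and the ratio of BPA to control was 1.81 in males and 0.49 in females, with 95% exact binomial intervals of 0.95 to 3.58 and 0.22 to 1.07. Both intervals, which cover counting error only, include equality. Wnt5a, a ligand of the planar polarity branch, was nearly level at 3.17, 3.44, 3.51 and 3.27 FPKM. The other Wnt ligands were low: Wnt3a, the hem ligand required for hippocampal development, was at 0.26, 0.13, 0.22 and 0.31 FPKM, and Wnt1, Wnt2b, Wnt3, Wnt5b, Wnt9a, Wnt9b, Wnt10b and Wnt11 ranged from 0.01 to 1.12 FPKM. Wnt8a was listed for males only and Wnt10a for females only.

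Among the Frizzled receptors, Fzd3, which guides axon growth, was at 18.4, 18.2, 21.0 and 20.2 FPKM, and Fzd1 was at 17.8, 19.2, 16.0 and 15.4 FPKM. The largest of their differences between BPA and control was 0.10, for Fzd1 in males. Fzd9, a receptor known from the hippocampus, was at 8.36, 7.87, 5.07 and 5.56 FPKM, and Fzd2 was at 5.62, 6.06, 5.05 and 3.88 FPKM. Fzd6 was at 2.48, 1.74, 1.98 and 2.25 FPKM.

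Fzd8 had the widest spread of the receptors, at 3.00, 2.07, 0.83 and 0.16 FPKM. It was lower in BPA by 0.38 in males and by 0.66 in females, where the 2 libraries held about 21 and 4 fragments. A further transcript model with the same best protein match, of 7646 bases, was listed at 3.88, 3.05, 3.74 and 3.66 FPKM. With both models added, the female difference was -0.21 and no longer past 0.5. How fragments were divided between the models was not tested. Fzd4, Fzd5 and Fzd10 ranged from 0.13 to 1.05 FPKM.

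The secreted inhibitors Dkk3, a divergent Dickkopf protein abundant in neurons, and Dkk4 were at 20.4, 21.8, 19.0 and 22.3 FPKM and at 18.1, 19.0, 20.7 and 22.2 FPKM. Both BPA libraries were above both controls for Dkk3, with a difference of 0.09 in males and 0.22 in females. Dkk4 lies within 10 kb of Polb, a broadly expressed DNA repair polymerase at 28.9, 30.2, 28.3 and 33.1 FPKM, and its level is uncertain to the extent that reads of neighboring genes could be shared. Sfrp1 was at 9.09, 9.32, 10.7 and 9.42 FPKM and Sfrp2 at 5.07, 5.60, 6.13 and 5.23 FPKM, both highest in female control. Dkk2 was at 0.26, 0.15, 0.84 and 0.19 FPKM, Sfrp4 ranged from 0.01 to 0.25 FPKM, Dkk1 was listed for males only, and Sfrp5 for females only.

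Ctnnb1, which encodes beta-catenin, was the most abundant gene of the pathways, at 226, 234, 220 and 211 FPKM, and differed by 0.05 in males and -0.06 in females. Axin2, a direct target of beta-catenin that limits the pathway, was at 5.90, 5.61, 6.26 and 5.24 FPKM. Both BPA libraries were below both controls, by 0.06 in males and 0.22 in females. Lef1, the DNA-binding partner of beta-catenin and a marker of the developing dentate gyrus, was at 4.90, 5.44, 4.58 and 3.90 FPKM, which is 0.13 higher in male BPA and 0.19 lower in female BPA. The 250 bases upstream of the Axin2 start are shown because this gene is the usual readout of Wnt signaling. They lie at chr10:94398535-94398784 on the plus strand of GRCr8 (RefSeq) and hold the TCF/LEF motif CTTTGAT, in capitals, with its first base 132 bases before the start.
Axin2: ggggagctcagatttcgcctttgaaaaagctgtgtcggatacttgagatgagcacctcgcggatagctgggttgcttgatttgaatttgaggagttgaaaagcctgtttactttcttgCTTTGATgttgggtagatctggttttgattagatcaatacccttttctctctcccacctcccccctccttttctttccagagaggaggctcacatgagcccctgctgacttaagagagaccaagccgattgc
This motif was searched on both strands and occurred in 3.18% of 27457 promoter windows of the same length, and in 2 of the 60 members that have an entry.

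The Notch ligands were low to moderate. Dll1, the main Delta ligand of neural progenitors, was at 8.43, 8.48, 7.77 and 7.36 FPKM, and Dll3, which acts within the cell on Notch trafficking, was at 2.49, 2.04, 1.42 and 1.54 FPKM. Dll4, a ligand of sprouting vessels, was at 1.41, 1.67, 1.72 and 0.97 FPKM and was 0.47 lower in female BPA. Jag1 was at 1.53, 2.20, 2.11 and 1.86 FPKM, and was 0.34 higher in male BPA. Its paralog Jag2 was matched through 3 further transcript models, which are not among the 80 genes and summed to 12.9, 11.9, 10.8 and 9.90 FPKM.

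The receptors Notch1 and Notch2, carried by radial glia, were at 10.5, 11.2, 8.18 and 7.68 FPKM and at 9.02, 9.42, 8.39 and 7.23 FPKM. Notch3, which is also strong in the mural cells of vessels, was the most abundant receptor at 17.1, 16.2, 14.4 and 12.8 FPKM. Notch4, an endothelial receptor, was at 2.07, 1.89, 1.87 and 2.14 FPKM. For Notch1, Notch2 and Notch3 both female libraries were below both male libraries, and the differences between BPA and control within a sex were all smaller than 0.20.

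On the log2(FPKM + 1) scale, the Notch targets contained the largest difference between BPA and control of the 53 genes. With a pseudocount of 0.1, the female difference of Fzd8 was larger, at -1.84, against -1.18 for Hey2 in males. Hes5 (gene ID 79225), the canonical Notch effector of radial glia, was at 10.6, 6.26, 6.33 and 3.92 FPKM. Male control was the highest library and female BPA the lowest, and both BPA libraries were below both controls, although male BPA and female control were nearly equal. The difference was -0.68 in males and -0.58 in females. Together it was -0.63 ± 0.28 (SE, 2 libraries against 2), with an unadjusted p of 0.060 and an adjusted p of 0.973 in limma. With sex as a covariate the unadjusted p was 0.0036 and the adjusted p 0.356, which was the lowest of the alternatives, and the highest was 1. The transcript is short (592 bases), so these levels rest on about 49, 29, 29 and 18 fragments. The ratio of BPA to control was 0.59 in males, with a 95% interval of 0.37 to 0.97, and 0.62 in females, with an interval of 0.32 to 1.15.

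Hey2 (gene ID 155430), a Notch target of progenitors and of vessels, was at 3.83, 1.63, 2.54 and 2.42 FPKM. The male BPA library was the lowest and male control the highest, and the female libraries were close together. The difference of -0.88 in males was the one mentioned above, and the difference was -0.05 in females. About 80 and 34 fragments lay behind the male values, with a ratio of 0.43 and a 95% interval of 0.28 to 0.64. Hes1, which oscillates in neural progenitors, was at 5.68, 3.97, 3.61 and 3.57 FPKM, lower by 0.43 in male BPA and by 0.01 in female BPA, so that male control stood alone above the other 3 libraries. The difference between the male and female differences could not be tested with 1 library per group.

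The other targets did not share this order. Hey1 was at 5.44, 5.21, 5.65 and 6.66 FPKM and Heyl at 2.08, 2.28, 1.98 and 2.15 FPKM, both within 0.21 of control in either sex. Hes6, which opposes Hes1 and rises as progenitors turn into neurons, was the most abundant target at 151, 160, 117 and 138 FPKM, with BPA above control by 0.08 in males and 0.24 in females. Another annotated transcript overlaps its locus. Hes7, the segmentation clock gene, was at 10.7, 9.80, 4.95 and 6.24 FPKM, and other annotated transcripts overlap its locus, so its level may include their reads. Hes2 did not exceed 0.39 FPKM.

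The 250 bases upstream of Hes5, Hey2 and Hes1 are shown because these Notch targets were lower in male BPA than in male control. They come from RefSeq on GRCr8, at chr5:170804327-170804576 (plus strand) for Hes5, chr1:28640850-28641099 (plus strand) for Hey2 and chr11:84213046-84213295 (minus strand) for Hes1. The capitals mark the RBPJ motif GTGGGAA or its reverse complement TTCCCAC.
Hes5: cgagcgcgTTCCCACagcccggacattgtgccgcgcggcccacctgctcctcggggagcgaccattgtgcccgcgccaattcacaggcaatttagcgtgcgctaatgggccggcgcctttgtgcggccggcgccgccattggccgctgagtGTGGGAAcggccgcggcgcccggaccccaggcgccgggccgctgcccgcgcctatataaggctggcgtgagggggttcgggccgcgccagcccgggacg
Hey2: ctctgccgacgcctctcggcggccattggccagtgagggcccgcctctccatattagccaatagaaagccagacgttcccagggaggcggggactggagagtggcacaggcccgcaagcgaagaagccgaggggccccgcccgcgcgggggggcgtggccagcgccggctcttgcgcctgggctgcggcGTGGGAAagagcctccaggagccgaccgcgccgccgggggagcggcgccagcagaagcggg
Hes1: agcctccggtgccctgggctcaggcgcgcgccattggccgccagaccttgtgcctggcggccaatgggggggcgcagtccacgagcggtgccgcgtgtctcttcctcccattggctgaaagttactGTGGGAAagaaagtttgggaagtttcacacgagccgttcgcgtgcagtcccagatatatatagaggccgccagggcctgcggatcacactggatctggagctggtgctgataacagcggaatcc
The motif began 242 and 99 bases before the start of Hes5, 61 bases before that of Hey2 and 124 bases before that of Hes1. It was found in 5.22% of all promoter windows and in 10 of the 60 members with an entry, among them Dll1 and Hes7. A match of these letters describes the sequence and does not show binding.

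Cell type markers that share these cells with the Notch targets were measured beside them. The 9 radial glia and progenitor markers summed to 1353, 1224, 1338 and 1248 FPKM, and the 8 markers of cycling cells summed to 55.0, 45.2, 55.2 and 48.7 FPKM. Both sums were lower in each BPA library than in its control, like Hes5, but the male and female controls were level, unlike Hes5. Single markers went both ways. Of the 9 radial glia and progenitor markers, 3 were higher in male BPA and 3 in female BPA. Fabp7 alone held 884 FPKM of the male control sum. Of the 8 cycling cell markers, 3 were higher in male BPA and 1 in female BPA. Their part in the result was not tested.

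Among the BMP ligands, Bmp7, a ligand of the hem, choroid plexus and meninges, was at 10.2, 8.24, 8.27 and 6.69 FPKM, lower by 0.27 in BPA in each sex. Bmp6 was at 3.64, 3.11, 4.27 and 2.11 FPKM, with both BPA libraries below both controls. The difference was -0.17 in males and -0.76 in females, where about 54 and 27 fragments gave a ratio of 0.49 and a 95% interval of 0.30 to 0.80. Bmp3, an atypical member that dampens BMP signaling, was at 2.24, 3.29, 2.41 and 3.11 FPKM, and both BPA libraries were above both controls, by 0.40 in males and 0.27 in females. Bmp1 encodes a procollagen protease rather than a ligand and was at 12.8, 12.3, 11.8 and 9.84 FPKM. Bmp2, Bmp4, Bmp5 and Bmp15 ranged from 0.08 to 1.20 FPKM, and Bmp10 was listed for females only.

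The type I receptor Bmpr1a and the type II receptor Bmpr2 were at 23.1, 23.4, 24.2 and 28.3 FPKM and at 21.9, 24.6, 25.3 and 23.9 FPKM. Bmpr1b, the alternative type I receptor, was far lower at 1.13, 1.85, 1.10 and 1.60 FPKM, and it was higher in BPA by 0.42 in males and 0.31 in females. Its ratios of 1.64 and 1.45 had 95% intervals of 0.94 to 2.92 and 0.81 to 2.68, which include equality.

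The Smads, which carry the signal to the nucleus, varied little. Smad4, the partner shared by all branches, was at 37.6, 39.5, 37.5 and 38.1 FPKM, and the BMP-activated Smad5 and Smad1 were at 36.2, 36.5, 34.8 and 40.6 FPKM and at 16.1, 18.5, 14.2 and 15.1 FPKM. Smad2, of the TGF-beta and activin branch, was at 16.6, 18.2, 19.4 and 19.3 FPKM, and Smad3 of the same branch was at 3.55, 3.44, 3.99 and 3.04 FPKM. The inhibitory Smad7 was at 2.78, 2.41, 2.17 and 2.22 FPKM, Smad9 was at 1.53, 1.46, 1.41 and 0.96 FPKM, and Smad6 did not exceed 1.20 FPKM. None of the 7 compared Smads differed between BPA and control by more than 0.31 in either sex.

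Of the hedgehog genes, the ligand Shh was at 0.14, 0.21, 0.56 and 0.35 FPKM, below the limit in every library. Smo, the signal transducer, was at 14.2, 12.8, 12.3 and 10.4 FPKM. Ptch1, at once the receptor and a target of the pathway, was at 4.49, 4.86, 6.01 and 4.15 FPKM, higher by 0.09 in male BPA and lower by 0.44 in female BPA. For females, about 370 and 258 fragments gave a ratio of 0.69 with a 95% interval of 0.59 to 0.81. Gli1, the other standard target, was at 1.08, 1.87, 1.24 and 1.19 FPKM, which is 0.46 higher in male BPA and 0.03 lower in female BPA. Gli3, mainly a repressor, was at 3.85, 4.72, 3.98 and 3.34 FPKM and Gli2, mainly an activator, at 1.87, 1.87, 2.09 and 1.40 FPKM. All 5 compared hedgehog genes were lower in female BPA than in female control, with a median of -0.22, and in males 3 were higher, 1 was lower and Gli2 was equal. Among all rows with a gene ID, 57.1% were lower in female BPA, with a median of -0.04. After quantile normalization the female difference of Gli1 changed sign. The window upstream of Ptch1, at chr17:1555321-1555570 on the plus strand of GRCr8 (RefSeq), is shown because it holds the GLI motif TGGGTGGTC, in capitals, 172 bases before the start.
Ptch1: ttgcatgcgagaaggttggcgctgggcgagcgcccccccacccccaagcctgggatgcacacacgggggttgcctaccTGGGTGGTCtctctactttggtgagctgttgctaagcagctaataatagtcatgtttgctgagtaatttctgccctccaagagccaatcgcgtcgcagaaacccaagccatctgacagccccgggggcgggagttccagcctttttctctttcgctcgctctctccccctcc
Searched on both strands, this motif occurred in 0.331% of all promoter windows and in no other of the 60 members with an entry.

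Across the 53 genes, both BPA libraries were below both controls for 7 (Wnt4, Axin2, Hes5, Hey2, Bmp6, Bmp7 and Smad3), or 13.2%, against 20.2% of all rows with a gene ID. Both were above both controls for 6 (Dkk3, Heyl, Bmp3, Bmpr1b, Smad4 and Smad5), or 11.3%, against 13.3%. The shares did not exceed those of the other rows. The genes that were higher comprised 4 of the 14 BMP genes, and those that were lower comprised 3 of the 14.

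The second comparison set the female libraries against the male libraries. The pathway genes were more often lower in females: 38 of 53, or 71.7%, had a lower mean, against 52.0% of all rows with a gene ID, and the median difference (female minus male) was -0.14 against -0.0094. No member differed at an adjusted p under 0.05 in limma, and 1 of the 13542 rows did (0.00738%), LOC100911498, which is not a member and is named because it was the only one. At an unadjusted p under 0.05, 7 of the 53 genes were lower in females, or 13.2%, against 6.59% of all rows with a gene ID, and no member was higher. Both female libraries were below both male libraries for 21 members, or 39.6%, against 23.7%, and above both for 6 (Fzd3, Dkk4, Sfrp1, Hey1, Smad2 and Bmpr1a), or 11.3%, against 19.7%.

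Of these 7 genes, 4 belong to Notch and 3 to Wnt signaling. Hes7 had a mean of 10.2 FPKM in males and 5.60 FPKM in females, a difference of -0.78 ± 0.16 (SE, 2 libraries against 2; limma unadjusted p = 0.0019, adjusted p = 0.229). Notch1 was at 10.8 and 7.93 FPKM (-0.41 ± 0.13; unadjusted p = 0.016, adjusted p = 0.366). Hes6 differed by -0.29 and Notch3 by -0.28, and with treatment as a covariate Hes5 also had an unadjusted p under 0.05. In all, 12 of the 15 Notch genes had a lower mean in females, and for 8 of them both female libraries were below both male libraries.

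Among the Wnt genes, Fzd8 had a mean of 2.54 FPKM in males and 0.50 FPKM in females (-1.27 ± 0.32 (SE); unadjusted p = 0.006, adjusted p = 0.292). With both of its models added, an alternative chosen after seeing the data, the difference was -0.42, smaller than that of Fzd9. Fzd9 was at 8.12 and 5.32 FPKM (-0.53), and Wnt7a at 18.5 and 14.7 FPKM (-0.31). Of the 19 Wnt genes 13 had a lower mean in females, as did 9 of the 14 BMP genes and 4 of the 5 hedgehog genes, but no BMP or hedgehog gene had an unadjusted p under 0.05. With 1 library left out at a time, the median difference of the 53 genes ranged from -0.09, without female BPA, to -0.16, without female control. Over all rows with a gene ID, the median in these fits was 0.01 without female BPA and -0.04 without female control.

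**Figure D3:**
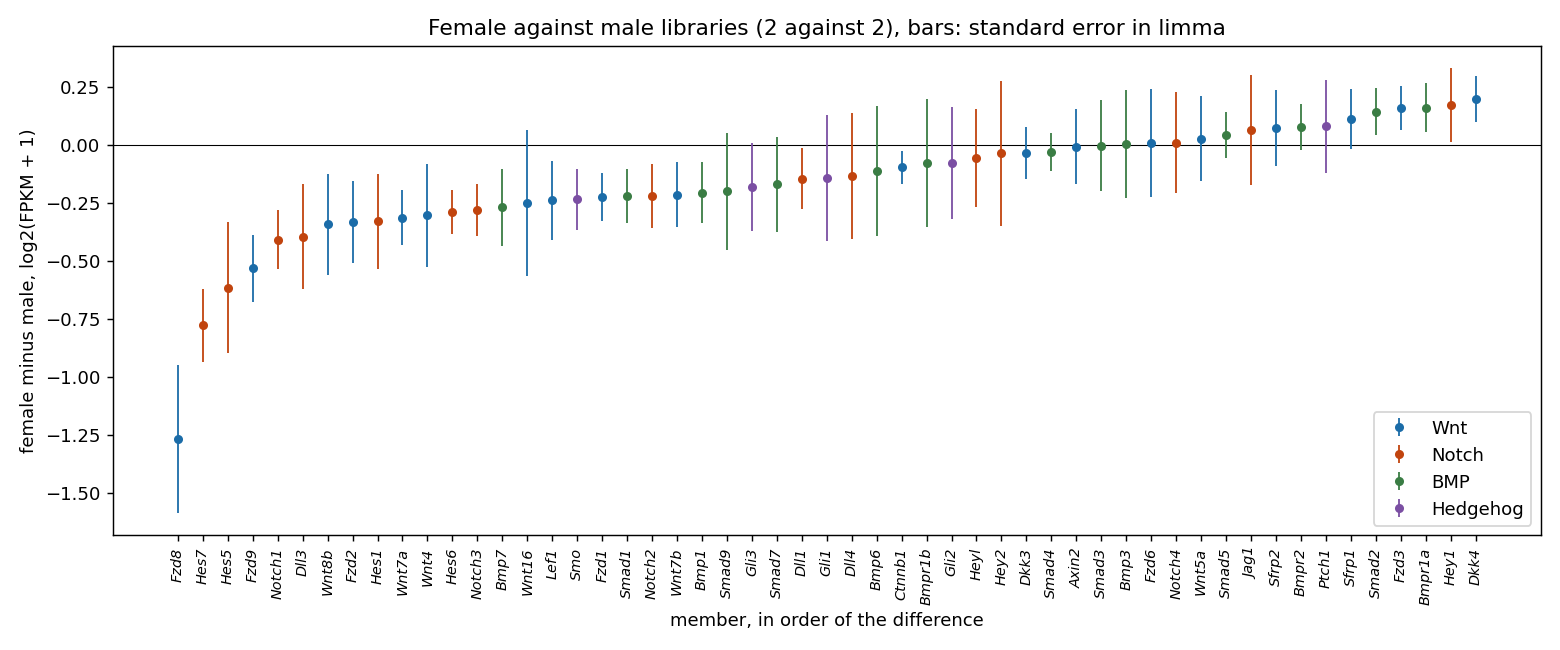
Difference between the 2 female and the 2 male libraries for each of the 53 compared genes, on the log2(FPKM + 1) scale, in order of size and colored by pathway. Points are differences of group means and bars are standard errors from limma. Points below 0 are lower in females, which holds for 38 genes, with Fzd8 at -1.27 and Hes7 at -0.78.

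Markers of other cell types also differed by sex. Of the 7 choroid plexus markers compared, both female libraries were below both male libraries for 6. Markers of meninges and vessel wall went the other way. Of the 13 compared, 12 had a higher mean in females, 3 of them at an unadjusted p under 0.05 in limma. For 5 of the 13, both female libraries were above both male libraries. Of the 6 microglia markers, 4 had a higher mean in females, none at that limit. The hippocampal neuron markers summed to 719 and 721 FPKM in the male and 649 and 680 FPKM in the female libraries. The oligodendrocyte lineage markers summed to 136, 105, 111 and 94.0 FPKM in the common order, so that the sexes overlapped. The sums for interneurons were 230, 228, 207 and 188 FPKM. Of the 9 radial glia and progenitor markers, 7 had a lower mean in females, 2 of them at an unadjusted p under 0.05 in limma, and of the 8 cycling cell markers 3 did, none at that limit. Their part in the sex differences was not tested.

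The female control library, which stood apart by its meningeal markers, was also the highest library for Wnt6, Bmp6, Dkk2 and Bmp4, which were chosen for this after their values were seen. All 13 meningeal and vessel wall markers compared were lower in female BPA than in female control, 10 of them by at least 0.5, with a median of -1.07. Wnt6 was at 0.39, 0.40, 1.96 and 0.06 FPKM, about 34 fragments in female control against 1 in female BPA. Bmp4 was at 0.15, 0.68, 0.85 and 0.30 FPKM, so that male BPA was close to female control. Outside female control, Wnt6 did not exceed 0.40 FPKM and Dkk2 did not exceed 0.26 FPKM. Bmp7, which meninges also express, was highest in male control, as were Hes5 and Wnt4. The part of meningeal tissue in these differences was not tested.

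**Figure D4:**
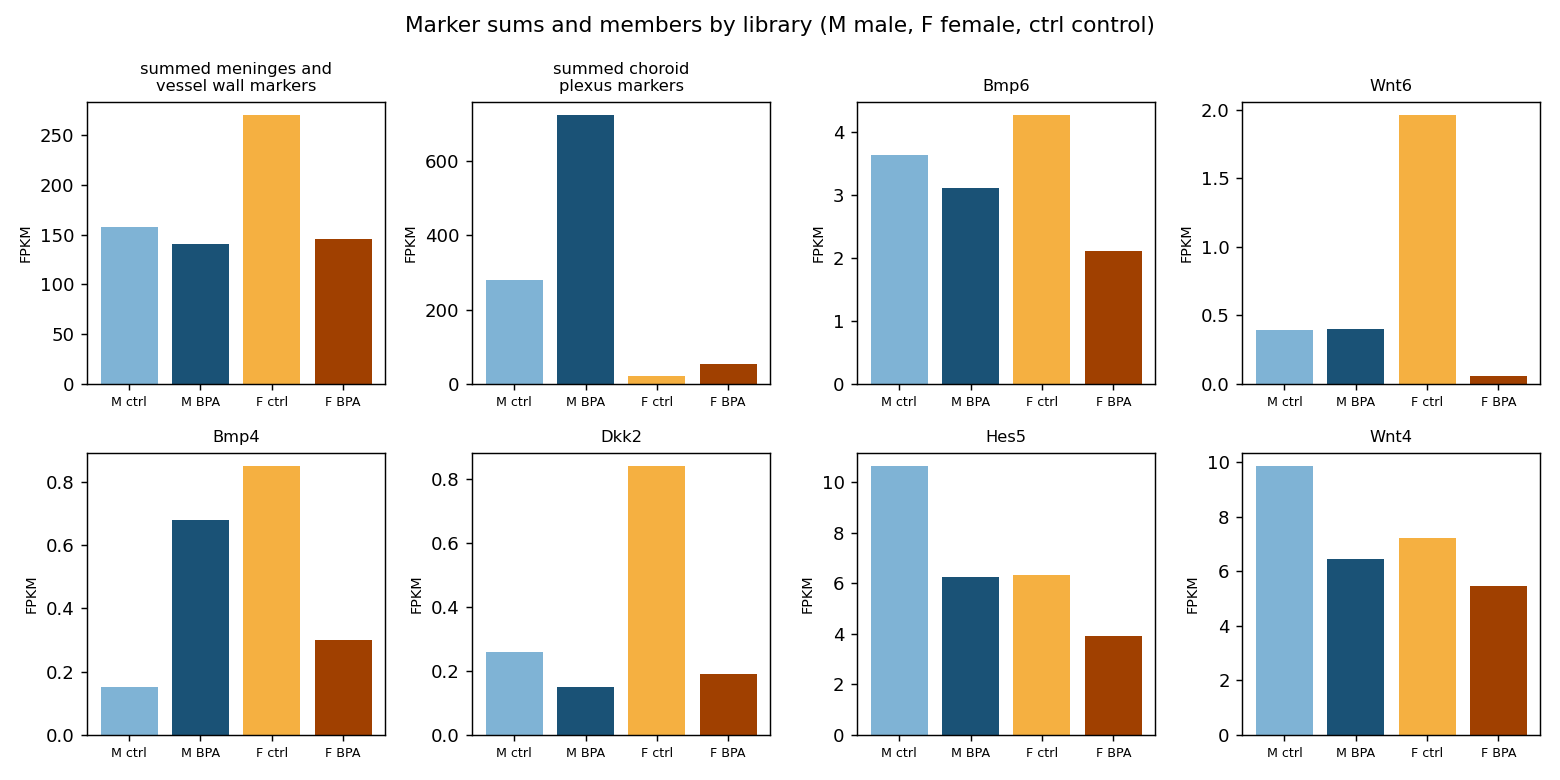
Summed level of the markers of meninges and vessel wall and of choroid plexus, and level of 6 pathway genes, in each library (bars, FPKM on linear axes from 0, 1 pooled library each). The meningeal sum, Bmp6, Wnt6, Bmp4 and Dkk2 are highest in female control, the choroid plexus sum is highest in male BPA, and Hes5 and Wnt4 are highest in male control.

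Further genes of the same pathways were read from a fixed list. Of those that reached 1 FPKM, 37 belong to Wnt, 29 to Notch, 33 to BMP and 13 to hedgehog signaling, with Gsk3b counted in both Wnt and hedgehog. None differed between BPA and control at an adjusted p under 0.05 in limma, and at an unadjusted p under 0.05 3 were lower (Ccnd1, Wif1 and Eng) and 1 was higher (Ryk). The lower genes were 2 of the 37 Wnt genes and 1 of the 33 BMP genes. Of all 10857 rows with a gene ID compared, 298 (2.74%) were lower and 121 were higher at that limit. Ccnd1, which encodes cyclin D1 and responds to Wnt signaling, was at 14.7, 10.4, 14.3 and 10.7 FPKM, lower in both BPA libraries by 0.47 in males and 0.39 in females (limma unadjusted p = 0.010, adjusted p = 0.973). The sum of the cycling cell markers was likewise lower in both BPA libraries, although 3 of the 8 were higher in male BPA and 1 in female BPA. The part of cycling cells in the result was not tested.

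Wif1, a secreted Wnt inhibitor, was at 4.05, 2.83, 4.61 and 2.99 FPKM, and Ryk, a Wnt receptor of axons, was at 16.9, 20.1, 17.3 and 21.9 FPKM. For both genes the BPA libraries did not overlap the controls. A difference past 0.5 with the same sign in males and females was found for Acvrl1, an endothelial BMP receptor that was lower in BPA (2.07, 1.17, 2.46 and 1.34 FPKM), Dlk1, an imprinted Delta-like protein that was higher (2.07, 3.79, 0.70 and 2.09 FPKM), and Sostdc1, a BMP and Wnt antagonist that was higher (1.64, 3.08, 0.21 and 0.76 FPKM). Sostdc1 is also among the choroid plexus markers, whose sum was higher in the BPA library of each sex. Of the 7 markers compared, all 7 were higher in male BPA, but in female BPA 3 were higher and 4 were lower. In females Ttr alone went from 3.96 FPKM in control to 42.4 FPKM in BPA. Bambi, a decoy receptor of the BMP family, was at 3.35, 0.44, 1.48 and 1.47 FPKM and had the largest male difference of the list, -1.59. Nrarp, a Notch target that limits the pathway, was highest in male control, as was Hes5, at 14.9, 10.6, 10.6 and 9.96 FPKM. Between the sexes, 22 of the 29 further Notch genes had a lower mean in females, or 75.9% against 52.0% of all rows with a gene ID. At an unadjusted p under 0.05, 6 of the 29 were lower, or 20.7% against 6.59%, and 2 were higher. In the other lists, 24 of 37 Wnt genes were lower (5 at that limit), 16 of 33 BMP genes (4 at that limit) and 9 of 13 hedgehog genes (none at that limit).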

How the data were processed

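Total RNA of pooled hippocampi was sequenced in 4 libraries. The authors deposited 1 FPKM value per gene and library, with 0.01 as the lowest value listed. The submitters' processing notes name HISAT 0.1.6, Bowtie2 2.2.5, RSEM and the rn6 build, without the role of each, the annotation or any strand setting. RSEM divides fragments between transcripts that share sequence, so levels of overlapping models are uncertain. No counts were used, and depth was estimated from the steps of low values. Per library, 95.3% to 98.6% of low values came out whole (tolerance 0.15), against 30% if spread evenly. Intervals from these fragments are exact binomial and cover counting error only.

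The files were joined on row names with Python 3.11.15, pandas 2.3.3 and numpy 2.4.6, intervals were computed with scipy 1.17.1, and plots were drawn with matplotlib 3.10.9. Values were analyzed as log2(FPKM + 1). Rows whose mean was below 1 FPKM were left out. BPA was compared with control, and female with male, as 2 libraries against 2 in R 4.3.3 by limma 3.58.1 (trended eBayes without covariates) and Benjamini-Hochberg adjustment over all rows, after testing on simulated data. Within a sex no test was possible, and a difference of at least 0.5 was counted.

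The genes and lists were chosen with earlier results of these data known. Named are the 3 most abundant genes of each role, the 5 largest differences in each direction and sex, genes with an unadjusted p under 0.05 and a fixed set of pathway readouts, and the other genes are given by value or range. Axin2, Hes5, Hey2, Hes1 and Ptch1 promoters come from RefSeq tables of GRCr8, a later assembly than rn6, in which all 80 genes matched by gene ID and 60 had a promoter entry. Other pseudocounts, filters, scaling, covariates, summed models and leaving out each library were tried.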

Additional observations from a re-analysis of the deposited data

Results flagged for a closer look

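Wnt16 moved in opposite directions in the sexes. The BPA library was higher than control by 0.52 in males and differed by -0.54 in females on the log2(FPKM + 1) scale. With 1 library per group the difference between the sexes was not tested.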

How the results depend on the processing

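Of all rows compared, 0 differed between BPA and control as reported, against 2 with sex as a covariate, 6 without the trend in limma, and 0 to 3 with 1 library left out (3 without female control, 1 without male BPA). Between the sexes 1 row differed as reported, against 21 at a mean of at least 5 FPKM, 55 with treatment as a covariate, and 1 to 2 with 1 library left out (2 without female control). No member was among them under any of these settings. The number of members past 0.5 in males was 4 as reported, 9 with a pseudocount of 0.1, 2 at a mean of at least 5 FPKM and 0 at a threshold of 1. In females it was 4, with 10, 1 and 0 under the same settings and 7 with no filter. No difference reversed among those past 0.5. After quantile normalization the female differences of Hes5 and Wnt16 were -0.47 and -0.43, and the female sign turned for 7 members with small differences. Fzd8 in females was -0.57 after that scaling and -0.21 with its models summed, and its difference between the sexes was -0.42 with them summed. The cause of these shifts was not tested. Depth limits genes near 1 FPKM, such as Wnt16, which rest on few fragments. The labels give no replicate numbers, and the fit with sex as a covariate is the comparison of BPA with control within sex.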
